A study of Mus musculus with 9 samples.

Results

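The genes described here are 30 mouse genes of cholesterol synthesis and sterol regulation, out of 49671 gene rows in the deposited count table. They were chosen by name, as rows whose identifier maps to a list of symbols; the rule uses no measured value, but the list was drawn up with earlier results of these data known. They comprise 18 synthesis enzymes, 10 genes of the SREBP and LXR regulatory circuits and 2 genes of intracellular sterol transport. All 30 were expressed enough to be tested.

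The study asked what Flg deficiency does to gene expression in keratinocytes. Filaggrin, the Flg product, helps to build the cornified layer of skin. The 9 samples, 5 wt/wt and 4 ko/ko at Flg, are skin cells sorted as CD45- (lacking the common leukocyte antigen) and CD49f+ (carrying integrin alpha-6), whose polyadenylated RNA was amplified and sequenced. The labels give no strain, age, sex or treatment, and do not describe the Flg allele.

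Cholesterol is built from acetyl-CoA through mevalonate and isoprenoid units to squalene, which is closed to lanosterol and trimmed to the finished sterol. When membranes are poor in sterol, the escort protein Scap carries SREBP precursors to the Golgi, where they are cut to release transcription factors that switch on these enzymes; Insig proteins hold Scap back when sterol is plentiful. Oxysterols activate the LXR receptors, which switch on genes of cholesterol export. In epidermis, cholesterol made by keratinocytes is one of the main lipids of the permeability barrier.

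Library totals ran from 15601859 to 23200440 counts. Values are given as CPM, counts scaled to a common library size. Library sizes were adjusted by TMM, a scaling that sets aside genes with extreme ratios. By library total, 1 count is worth 0.0431 to 0.0641 CPM. Counts of Flg were 0 to 6 per library whatever the genotype, too few to check the labels. The sort label names epidermal cells, yet 10 fibroblast markers summed to 14044 to 34313 CPM over the 9 libraries and 10 basal keratinocyte markers to 1499.8 to 3148 CPM. The levels below are therefore levels of a mixed sort, in which fewer cells of a type and less RNA per cell cannot be told apart. Library codes in the labels run in separate blocks by genotype and no processing batch is named, so batch and genotype cannot be told apart. No label says that samples are separate animals, so p-values measure the spread between these samples.

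Differences were tested with edgeR's quasi-likelihood test over 18435 genes with Benjamini-Hochberg adjustment. At an adjusted p under 0.05, none of the 30 genes was called in either direction; the test called 0.00542% of all genes higher in ko/ko and 0% lower. The smallest adjusted p among the 30 was 0.166. At an unadjusted p under 0.05, 3 of the 30 were lower in ko/ko (Srebf1, Insig1 and Srebf2), where 6.42% of all genes were, and 1 was higher (Abca1), where 8.86% of all genes were. All 4 belong to the regulators; none of the 18 enzymes had an unadjusted p under 0.05. The ko/ko values lay wholly below the wt/wt values for 2 of the 30 (Srebf1 and Insig1), against 2.74% of all genes, and wholly above for 0 of the 30, against 3.51%.

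DESeq2 and limma voom with sample quality weights called more genes. DESeq2 called 1.11% of genes lower and 2.53% higher at an adjusted p under 0.05, and 1 of the 30 was among them (Srebf1, lower). Voom called 3.17% of genes lower and 6.6% higher, and 3 of the 30 were among them (Srebf1 and Insig1, lower; Abca1, higher). The median log2 fold change, ko/ko over wt/wt, was -0.10 over the 30 genes and -0.03 over all genes tested, and 19 of the 30 were negative.

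**Figure D1:**
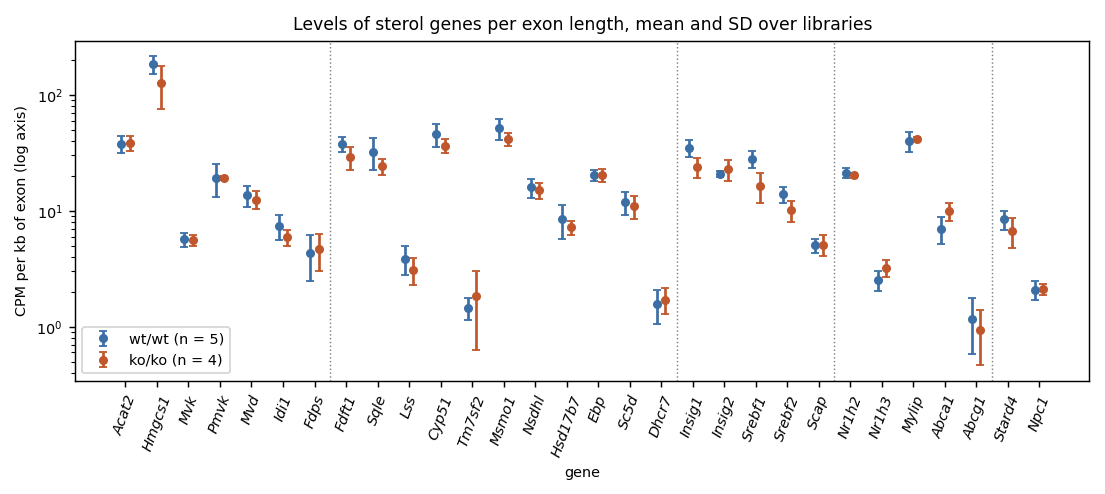
Level of each gene in CPM per kilobase of exon (log axis), as mean and SD over 5 wt/wt (blue) and 4 ko/ko (orange) libraries, with dotted lines between mevalonate enzymes, sterol branch enzymes, SREBP genes, LXR and efflux genes, and transport genes. Hmgcs1 stands highest at 158 CPM per kilobase over the 9 libraries and Abcg1 lowest at 1.06.

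Levels between genes are compared per kilobase of the deposited exon length, as means over the 9 libraries. Hmgcs1, which makes HMG-CoA at the entry to the mevalonate pathway, was the highest of the 30 at 158 CPM per kilobase, with a range of 57.5 to 222. Msmo1, the sterol methyl oxidase, followed at 47 CPM per kilobase, Cyp51, the lanosterol demethylase, at 41.6, Mylip, a ubiquitin ligase for lipoprotein receptors, at 41.1, and Acat2, the cytosolic thiolase that makes acetoacetyl-CoA, at 38.1. The order among these 4 is not separated by their spread over libraries. At the low end stood Npc1, the lysosomal cholesterol exporter, at 2.09, Dhcr7, a terminal sterol reductase, and Tm7sf2, the sterol reductase acting after Cyp51, both at 1.63, and the exporter Abcg1 at 1.06 CPM per kilobase. Within the SREBP genes the order was Insig1 at 30, Srebf1 at 23, Insig2 at 21.7, Srebf2 at 12.2 and Scap at 5.06 CPM per kilobase. By genotype, Srebf1 averaged 28.1 ± 4.8 and Insig2 20.8 ± 1.16 CPM per kilobase in wt/wt (SD, n = 5). In ko/ko the order of the means turned, at 16.5 ± 4.78 and 22.8 ± 4.86 (SD, n = 4). The ko/ko spreads overlap, so the order there is not separated.

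The largest log2 fold change among the 30 genes belonged to Srebf1, which encodes the SREBP forms best known for driving fatty acid synthesis. Srebf1 (ENSMUSG00000020538, mm10 chromosome 11, 60199089 to 60222581, minus strand) had 133, 132, 161, 170.3 and 196 CPM in wt/wt replicates 1 to 5 and 60.3, 81.5, 116 and 114 CPM in ko/ko replicates 1 to 4. Every ko/ko library lay below every wt/wt library. The means were 158 ± 27.1 CPM (SD, n = 5) and 93 ± 27 CPM (SD, n = 4), giving a log2 fold change of -0.77 (SE 0.21) with an edgeR adjusted p of 0.166. The adjusted p was 0.0273 with DESeq2 and 0.0202 with voom. Leaving out each library in turn gave log2 fold changes of -0.89 to -0.61 and edgeR adjusted p of 0.104 to 0.369. Exons of Srebf1 overlap those of Rai1 on the other strand, and strand handling is not given in the sources used here; Rai1 averaged 13.3 ± 1.71 CPM across wt/wt (SD, n = 5) and 15.2 ± 4.17 CPM across ko/ko (SD, n = 4).

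Insig1, the sterol-regulated anchor that holds Scap in the endoplasmic reticulum and is itself a known SREBP target, also had separate ranges. Its CPM was 96.7, 88.1, 132, 101 and 121 in wt/wt replicates 1 to 5 and 54.5, 87, 73.5 and 82.5 in ko/ko replicates 1 to 4. The gap between genotypes was narrow, 88.1 in the lowest wt/wt library against 87 in the highest ko/ko library. The log2 fold change was -0.53 (SE 0.18), with an adjusted p of 0.213 in edgeR, 0.0918 in DESeq2 and 0.0284 in voom. Its relative Insig2, whose product anchors Scap in the same way, had 72.5, 66.6, 73.8, 77.4 and 70.3 CPM in wt/wt and 98.2, 88.5, 66.9 and 63.3 CPM in ko/ko. The ko/ko values spread to both sides of the wt/wt values, and the log2 fold change was 0.14 (SE 0.15; adjusted p = 0.706 in edgeR). The ratio of Insig1 to Insig2, per kilobase, was 1.5, 1.49, 2, 1.47 and 1.93 in wt/wt and 0.622, 1.1, 1.23 and 1.46 in ko/ko. The highest ko/ko ratio lay just under the lowest wt/wt ratio; these ratios were not tested.

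Srebf2 encodes the SREBP best known for driving cholesterol synthesis. It had 79.5, 77.7, 73, 54.3 and 63.1 CPM in wt/wt replicates 1 to 5 and 39.8, 41.9, 59.1 and 59.8 CPM in ko/ko replicates 1 to 4. The genotypes overlapped, since wt/wt replicate 4 lay below ko/ko replicates 3 and 4. The log2 fold change was -0.47 (SE 0.18), with an unadjusted p of 0.0225 and an adjusted p of 0.256 in edgeR, and -0.27 with an adjusted p of 0.269 in voom. Its unadjusted p was 0.0635 without ko/ko replicate 1, 0.0736 without ko/ko replicate 2 and 0.0847 with library size alone as the scaling. Scap, the SREBP escort, averaged 37.5 ± 5.07 CPM across wt/wt (SD, n = 5) and 38 ± 7.63 CPM across ko/ko (SD, n = 4), for a log2 fold change of 0.02 (SE 0.17).

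**Figure D2:**
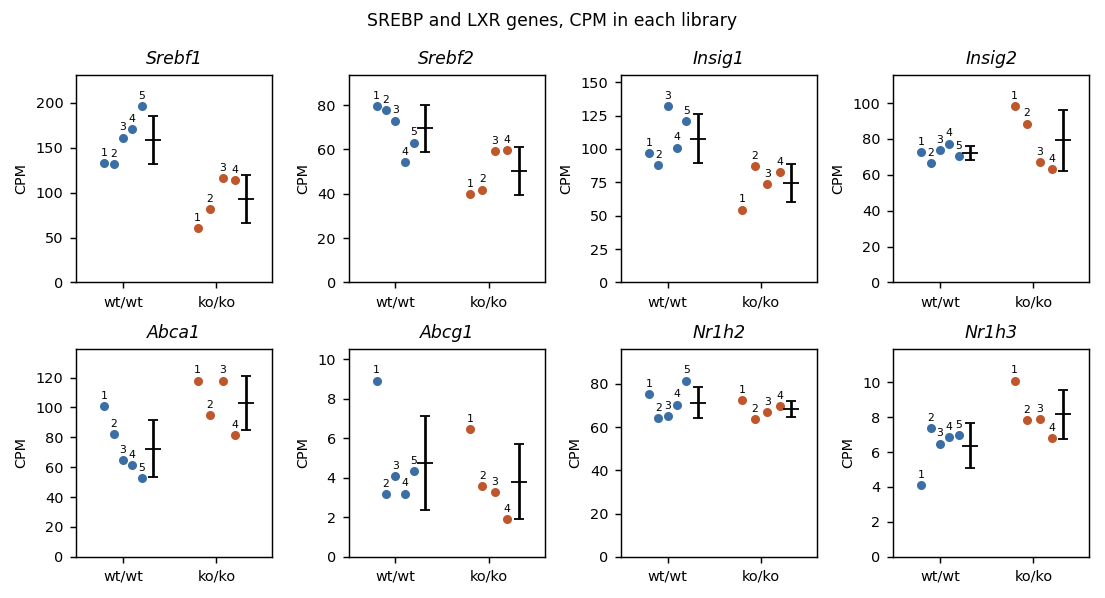
CPM of 8 SREBP and LXR genes in each library (points, numbered by replicate; 5 wt/wt in blue, 4 ko/ko in orange), with the mean and SD of each genotype in black; axes start at 0. The genotypes do not overlap for Srebf1 and Insig1 and overlap for the other 6 genes.

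On the LXR side, Abca1, which exports cholesterol to lipid-poor apolipoprotein, had higher values in ko/ko. Abca1 had 101, 82.1, 64.7, 61.6 and 52.6 CPM in wt/wt replicates 1 to 5 and 118, 94.6, 118 and 81.4 CPM in ko/ko replicates 1 to 4. The genotypes overlapped, since wt/wt replicates 1 and 2 lay within the ko/ko range. The log2 fold change was 0.51 (SE 0.20), with an unadjusted p of 0.028 and an adjusted p of 0.272 in edgeR, 0.18 in DESeq2 and 0.0268 in voom. The unadjusted p was between 0.0605 and 0.0803 when wt/wt replicate 3, 4 or 5 or ko/ko replicate 1 or 3 was left out. With the trend on exon length removed, the log2 fold change was 0.31 with an unadjusted p of 0.0772.

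Myeloid markers shared the genotype direction of Abca1, a gene that macrophages also express. All 13 listed markers had a higher mean in ko/ko, and 11 of the 12 tested had an unadjusted p under 0.05 in edgeR. Their sum was 22.7 to 99 CPM in wt/wt and 45.7 to 458 CPM in ko/ko. Of these markers, Tyrobp, C1qc and Cd207 were at 0 counts in some libraries. By library, sums of 458, 384 and 207 CPM in ko/ko replicates 2, 1 and 3 went with ranks 4, 2 and 1 from the highest for Abca1. The next sum, 99 CPM in wt/wt replicate 1, went with rank 3. Below these the order differed. The lowest sum, 22.7 CPM in wt/wt replicate 2, went with rank 5, and 97.3 CPM in wt/wt replicate 3 with rank 7. The part of these cells in the Abca1 values was not tested. The other exporter, Abcg1, which passes cholesterol to lipoprotein particles, had 8.93, 3.16, 4.09, 3.2 and 4.35 CPM in wt/wt and 6.46, 3.57, 3.27 and 1.92 CPM in ko/ko. Replicate 1 of wt/wt lay above every ko/ko library and ko/ko replicate 4 below every wt/wt library, with overlap between; the log2 fold change was -0.32 (SE 0.42; adjusted p = 0.748 in edgeR).

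The LXR receptors themselves differed in level. Nr1h2, encoding LXR beta, had 75.2, 64.3, 65.2, 70.4 and 81.5 CPM in wt/wt and 72.3, 63.8, 67 and 69.8 CPM in ko/ko. Nr1h3, encoding LXR alpha, had 4.11, 7.38, 6.48, 6.85 and 6.96 CPM in wt/wt and 10.1, 7.82, 7.9 and 6.81 CPM in ko/ko. Per kilobase, Nr1h2 exceeded Nr1h3 in every library, by 5.37 to 13.7 times. The genotypes overlapped for both, with log2 fold changes of -0.06 (SE 0.13; adjusted p = 0.84 in edgeR) for Nr1h2 and 0.36 (SE 0.23; adjusted p = 0.482 in edgeR) for Nr1h3. Mylip, an LXR target in many cell types, had 88.6, 111, 129.8, 138 and 149 CPM in wt/wt and 131, 128, 133 and 122 CPM in ko/ko. Its ko/ko values sat inside the wt/wt range (log2 fold change 0.06, SE 0.16). The median over the 10 regulators was -0.02, but 0.09 with library size alone as the scaling, a setting that shifted the median of all genes by 0.11.

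Promoter sequences are shown for the 4 regulators with an unadjusted p under 0.05 and for Hmgcs1, the enzyme with the highest level. Each runs 5′ to 3′ from 250 bases before to 50 bases after a start site (RefSeq, build GRCm38.p6). Capitals mark 3 motifs on either strand: TCACNCCAC, the core of a sterol regulatory element with any base at N; CCAAT, the NF-Y box, which reads ATTGG on the other strand; and CACGTG, the E-box. The promoters used hold 3 start sites for Srebf1, and the one at the 5′ end of the deposited gene model is shown. Another, at chr11:60210422-60210721, holds an NF-Y box at position -30 and is not shown. Which start these cells use was not tested.
Hmgcs1 chr13:119690101-119690400 plus strand: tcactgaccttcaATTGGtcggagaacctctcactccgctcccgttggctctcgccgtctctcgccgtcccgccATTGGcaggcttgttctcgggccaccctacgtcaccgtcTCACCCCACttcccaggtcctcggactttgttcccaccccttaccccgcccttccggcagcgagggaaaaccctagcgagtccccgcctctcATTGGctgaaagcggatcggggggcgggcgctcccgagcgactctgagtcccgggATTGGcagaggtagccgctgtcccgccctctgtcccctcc
Insig1 chr5:28071162-28071461 plus strand: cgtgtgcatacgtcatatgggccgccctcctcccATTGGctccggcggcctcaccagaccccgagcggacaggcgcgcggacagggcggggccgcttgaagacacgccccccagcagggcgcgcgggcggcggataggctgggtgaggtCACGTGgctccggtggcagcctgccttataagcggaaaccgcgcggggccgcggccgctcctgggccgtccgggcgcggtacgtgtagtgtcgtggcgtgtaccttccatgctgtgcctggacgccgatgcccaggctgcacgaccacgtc
Srebf1 chr11:60222532-60222831 minus strand: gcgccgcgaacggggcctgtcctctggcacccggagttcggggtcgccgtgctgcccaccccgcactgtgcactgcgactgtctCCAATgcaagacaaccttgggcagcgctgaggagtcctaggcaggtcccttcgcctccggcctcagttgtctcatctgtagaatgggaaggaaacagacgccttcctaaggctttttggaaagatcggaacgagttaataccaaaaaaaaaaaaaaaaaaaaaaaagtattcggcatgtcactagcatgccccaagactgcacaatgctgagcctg
Srebf2 chr15:82147019-82147318 plus strand: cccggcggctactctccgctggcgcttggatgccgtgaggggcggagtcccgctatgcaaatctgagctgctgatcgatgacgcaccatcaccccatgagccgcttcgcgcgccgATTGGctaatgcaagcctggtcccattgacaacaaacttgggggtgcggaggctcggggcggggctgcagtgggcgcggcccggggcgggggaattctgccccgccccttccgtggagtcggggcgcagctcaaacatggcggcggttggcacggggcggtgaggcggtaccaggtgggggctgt
Abca1 chr4:53159846-53160145 minus strand: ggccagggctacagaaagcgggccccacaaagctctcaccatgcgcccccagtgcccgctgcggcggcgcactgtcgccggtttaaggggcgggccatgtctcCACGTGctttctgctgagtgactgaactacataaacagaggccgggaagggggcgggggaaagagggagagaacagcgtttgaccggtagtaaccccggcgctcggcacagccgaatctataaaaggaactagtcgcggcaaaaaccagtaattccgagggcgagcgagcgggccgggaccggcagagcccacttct

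The Hmgcs1 window holds TCACCCCAC, an exact element core, and 4 NF-Y boxes. The capitals mark 1 NF-Y box in the Srebf2 window, and 1 NF-Y box and 1 E-box in that of Insig1. In the Abca1 window the capitals mark 1 E-box, and in the printed Srebf1 window 1 NF-Y box. A script found 24 of the 30 genes in the promoter table, with 33 start sites, and compared them with 32851 promoters of the same length. CCAAT occurred in 60.6% of the 33 and 37.4% of all promoters. GGGCGG, the GC box, which is not in capitals, occurred in 75.8% and 35.7%, and CACGTG in 21.2% and 7.15%. TCACCCCAC occurred in 3.03% and 0.551%, TCACNCCAC in 3.03% and 1.24%, in Hmgcs1 alone among these genes. Sterol elements that differ from these letters at other bases were not searched for, so other genes may hold one. A pair of AGGTCA repeats in the same direction 4 bases apart, an exact form of the LXR direct repeat, occurred in 0% and 0.0152%. Only these exact letters were searched, so an LXR element that differs from them by some letters would be missed. These matches describe letters in a window and were not tested. Sqle, Fdft1, Fdps, Abcg1, Stard4 and Npc1 were not among the promoters used.

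The 18 synthesis enzymes had mostly lower mean values in ko/ko, none past a test. Of these, 13 had a negative and 5 a positive log2 fold change, with a median of -0.11 and a range of -0.53 to 0.33; over all genes 52.6% were negative. With library size alone 10 of 18 were negative, and with the exon length trend removed 15 of 18. The smallest adjusted p was 0.359, for Fdft1. An unadjusted p under 0.05 appeared for Fdft1, Hmgcs1 and Sqle with no filter on low counts, for Fdft1 and Sqle without wt/wt replicate 4, for Cyp51 without wt/wt replicate 1, for Hmgcs1 without ko/ko replicate 2, for Fdft1 without ko/ko replicate 4 for Fdft1 and Lss with the exon length trend removed and for Msmo1 in voom. Summed over the 18 enzymes, the libraries held 1717, 2232, 2207, 1523 and 1614 CPM in wt/wt replicates 1 to 5 and 1159.8, 1735, 1501 and 1545 CPM in ko/ko replicates 1 to 4. Replicates 2 and 3 of wt/wt stood above all others and ko/ko replicate 1 below all others, while the remaining 6 libraries of both genotypes ran from 1501 to 1735 CPM. The means were 1859 ± 337 CPM (SD, n = 5) and 1485 ± 239 CPM (SD, n = 4), a ratio of 0.799. Hmgcs1, Msmo1, Cyp51 and Sqle made up 57.6% to 70.4% of this sum, so the ratio is mostly that of these 4 genes.

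**Figure D3:**
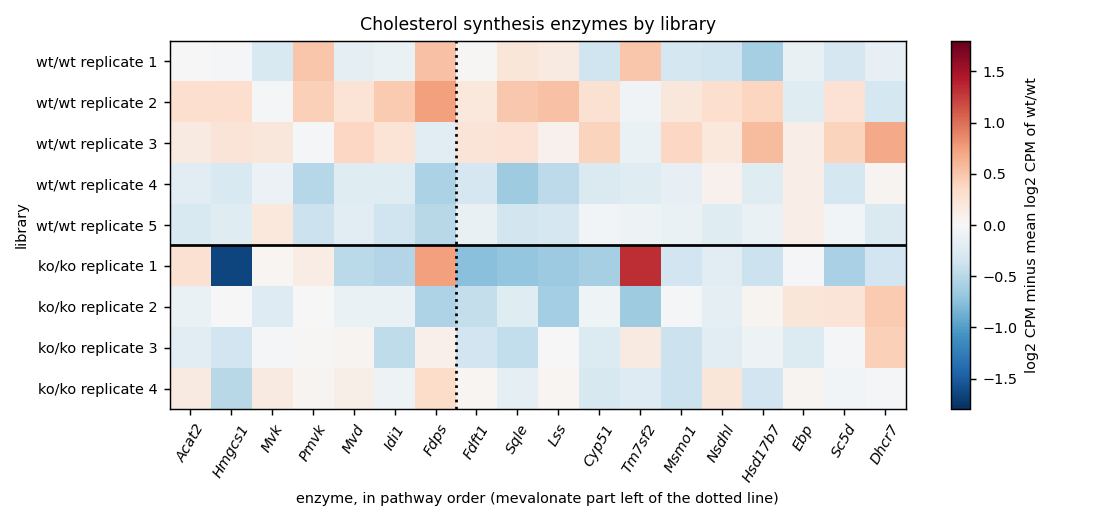
Log2 CPM of each of 18 synthesis enzymes (columns, in pathway order) in each of 9 libraries (rows), minus the mean log2 CPM of the 5 wt/wt libraries; red is above and blue below that mean. In wt/wt replicates 2 and 3, 15 enzymes each lie above the median of the 9 libraries, and ko/ko replicate 1 holds the lowest value for 9 enzymes.

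The libraries differed in how many enzymes they held at high or low values. Among the 9 libraries, wt/wt replicate 2 held the highest value for 7 enzymes and wt/wt replicate 3 for 8. In wt/wt replicates 4 and 5, 3 and 4 enzymes lay above the 9-library median, and other libraries were split, with 8 above and 9 below it in wt/wt replicate 1 and 7 on each side in ko/ko replicate 2. In ko/ko replicate 1, 9 enzymes had their lowest value, although 5 lay above the 9-library median. The order of libraries by Srebf1 was another one: wt/wt replicates 5 and 4 ranked first and second for Srebf1, while wt/wt replicates 2 and 3 ranked first and second for Hmgcs1. The library ko/ko replicate 1 ranked last for Srebf1, Srebf2, Insig1 and Hmgcs1 alike. It had the lowest total and a mitochondrial share of 6.3% of counts, where ko/ko replicates 2 to 4 had 1.81% to 2.01% and wt/wt had 2.77% to 7.55% in wt/wt; the part of these in its values was not tested.

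In the mevalonate part, which turns acetyl-CoA into isoprenoid units, 5 of 7 enzymes had a negative log2 fold change and the median was -0.02. Hmgcs1 had 571, 719, 684, 485 and 503 CPM in wt/wt and 186, 581, 461 and 415 CPM in ko/ko. The value of 186 CPM, in ko/ko replicate 1, lay far below the rest, and ko/ko replicate 2 lay within the wt/wt range. The log2 fold change was -0.53 (SE 0.28; adjusted p = 0.394 in edgeR), -0.29 without ko/ko replicate 1 and -0.74 without ko/ko replicate 2. Idi1, the isopentenyl diphosphate isomerase, had -0.32 (SE 0.20), and Mvd, the decarboxylase that makes isopentenyl diphosphate, had -0.12 (SE 0.19). The kinases Mvk and Pmvk, which phosphorylate mevalonate in turn, had -0.02 and -0.01, and Acat2 had 0.03. Fdps, the farnesyl diphosphate synthase at the branch point to sterols, had 0.12 (SE 0.33). Matches of at least 95% identity over at least 400 bases exist for Idi1 and Acat2. For Idi1 the match is the pseudogene Gm13502, 100% over 684 bases, with 6042 counts against 4335 for Idi1. For Acat2 it is Acat3, 97.7% over 1477 bases, with 1314 counts against 17662 for Acat2. Acat2 also shares a stretch of 445 bases at 98.7% with Tcp1, another gene. The 39423 counts of Tcp1 are for the whole gene and do not give the counts in that stretch. Hmgcs1 shares 462 bases at 100% with the antisense gene Gm48342, for which no counts were found under that name. In the count table no other gene overlaps exons of Hmgcs1. The counts of Idi1 and Acat2 are uncertain to that extent, and any effect of the shared stretch on Hmgcs1 was not tested.

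In the sterol branch, 8 of 11 enzymes had a negative log2 fold change and the median was -0.24. Sqle, the squalene epoxidase, had 201, 243, 206, 111 and 138 CPM in wt/wt and 107, 149, 127 and 153 CPM in ko/ko. The wt/wt libraries split, with replicates 1 to 3 above every ko/ko library and replicates 4 and 5 within the ko/ko range, and the log2 fold change was -0.42 (SE 0.23; adjusted p = 0.406 in edgeR). Msmo1 had 249, 357, 402, 281 and 286 CPM in wt/wt and 244, 305, 238 and 238 CPM in ko/ko. The genotypes overlapped through ko/ko replicate 2 alone, which lay above wt/wt replicates 1, 4 and 5, and the log2 fold change was -0.30 (SE 0.17; adjusted p = 0.435 in edgeR). Fdft1, the squalene synthase, had -0.36 (SE 0.18), Lss, which closes the ring to lanosterol, -0.32 (SE 0.23), and Cyp51 -0.32 (SE 0.19).

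The remaining enzymes of the branch had standard errors as large as their fold changes or nearly so. Hsd17b7, a sterol ketoreductase, had a log2 fold change of -0.24 (SE 0.23), Sc5d, the lathosterol desaturase, -0.11 (SE 0.20), and Nsdhl, the decarboxylating dehydrogenase, -0.09 (SE 0.17). Ebp, the sterol isomerase, had 0.00 (SE 0.14), Dhcr7 0.12 (SE 0.26) and Tm7sf2 0.33 (SE 0.38). The Tm7sf2 value rests on ko/ko replicate 1, at 12.6 CPM where ko/ko replicates 2 to 4 had 3.21 to 5.57 CPM; without it the log2 fold change was -0.23. Fdft1 shares a stretch of 774 bases with Ctsb on the other strand, which reached 999 ± 232 CPM across wt/wt (SD, n = 5) and 997 ± 185 CPM across ko/ko (SD, n = 4), and has a pseudogene copy, Gm6781, so its counts are uncertain. Exons of Cyp51, Lss, Tm7sf2, Fdps, Scap, Nr1h3 and Npc1 also overlap other genes.

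**Figure D4:**
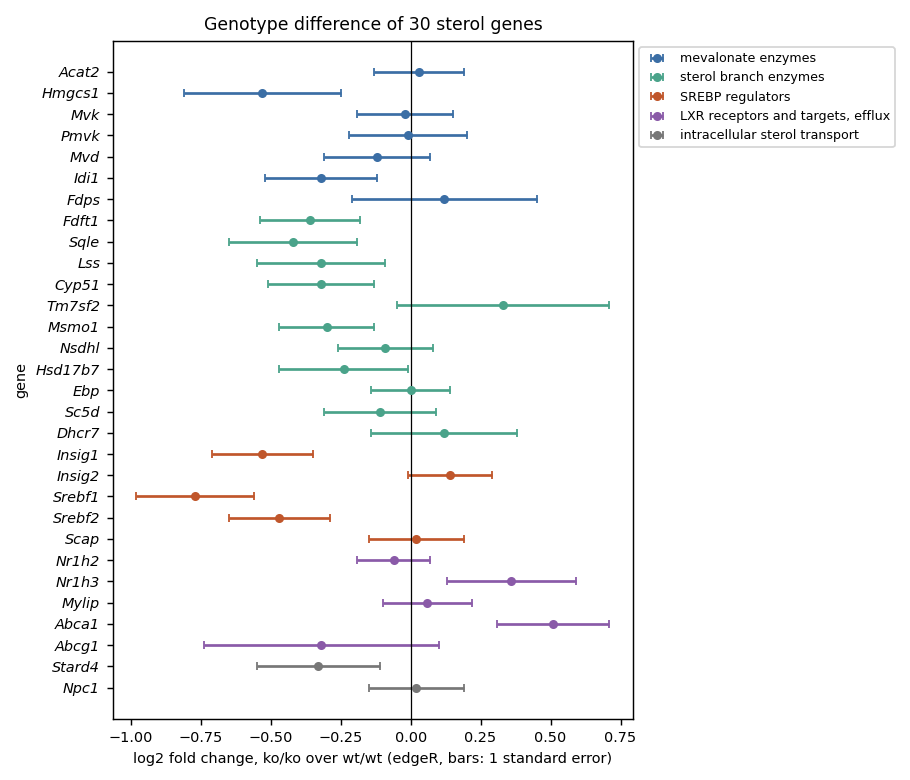
Log2 fold change of each of 30 genes, ko/ko over wt/wt (edgeR; bars are 1 standard error), coloured by role. Srebf1 lies lowest at -0.77 and Abca1 highest at 0.51, and 13 of the 18 enzymes lie below 0.

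Of the 2 transport genes, Stard4, which carries cholesterol between membranes, had 55.3, 57.3, 45, 41.2 and 37.3 CPM in wt/wt and 22.2, 46.5, 45 and 36.8 CPM in ko/ko. The lowest value was again that of ko/ko replicate 1, and ko/ko replicates 2 and 3 lay within the wt/wt range (log2 fold change -0.33, SE 0.22, edgeR adjusted p = 0.506). Npc1 averaged 22.2 ± 4.14 CPM across wt/wt (SD, n = 5) and 22.6 ± 2.57 CPM across ko/ko (SD, n = 4); its log2 fold change was 0.02 (SE 0.17).

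Other genes of these pathways, in lists chosen for their roles, gave no call at an edgeR adjusted p under 0.05. Of 15 genes of fatty acid synthesis and desaturation, the textbook programme of the Srebf1 product, 11 had a negative and 4 a positive log2 fold change, with a median of -0.25, and none had an unadjusted p under 0.05. The one with the most counts, Elovl6, a fatty acid elongase, averaged 229 ± 43.8 CPM across wt/wt (SD, n = 5) and 252 ± 52.3 CPM across ko/ko (SD, n = 4) (log2 fold change 0.14). Of 11 genes of SREBP processing and sterol-regulated degradation, 5 were negative, the median was 0.02 and none had an unadjusted p under 0.05. The one with the most counts, Pgrmc1, a haem-binding membrane protein, averaged 480.4 ± 69.8 CPM across wt/wt (SD, n = 5) and 386 ± 55.9 CPM across ko/ko (SD, n = 4); its log2 fold change was -0.32 (SE 0.16).

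Of 11 genes of the isoprenoid branch, which diverts farnesyl units to prenylation, dolichol and ubiquinone, 7 were negative and the median was -0.05. At an unadjusted p under 0.05, Icmt, the prenylcysteine methyltransferase, had lower values in ko/ko, 19.4 ± 4.38 CPM (SD, n = 4) against 29.3 ± 6.08 CPM (SD, n = 5); edgeR gave an adjusted p of 0.247. Nus1, a subunit of the dolichol-making prenyltransferase, had higher values, 34.1 ± 5.31 CPM (SD, n = 4) against 26.8 ± 3.35 CPM (SD, n = 5); edgeR gave an adjusted p of 0.318. Among 7 LXR partners, corepressors and further targets, 5 were positive and the median was 0.13. The corepressor Ncor1 averaged 107 ± 20.3 CPM across wt/wt (SD, n = 5) and 146 ± 19.4 CPM across ko/ko (SD, n = 4) (edgeR adjusted p = 0.251), and Rxrb, a receptor that pairs with LXR, 13 ± 1.75 CPM (SD, n = 5) and 17.3 ± 3.59 CPM (SD, n = 4) (edgeR adjusted p = 0.321). Of 22 other genes of sterol uptake, transport, storage and turnover, 9 were negative, the median was 0.07 and none had an unadjusted p under 0.05. The one with the most counts, Npc2, the lysosomal partner of Npc1, averaged 319 ± 74.7 CPM across wt/wt (SD, n = 5) and 336 ± 71.8 CPM across ko/ko (SD, n = 4).

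Cell markers beside these values are given as summed CPM. Summed markers of the lipid-making cell types overlapped between genotypes. The sebaceous gland list of 10 genes summed to 1131 to 1511 CPM in wt/wt and 1237 to 1571 CPM in ko/ko. Mgst1, at 491 CPM in wt/wt and 490.3 CPM in ko/ko, and Plin2, at 422 and 474 CPM, made up most of that sum. In this list 4 of 10 genes had a higher mean in ko/ko. Awat1 averaged 1.63 and 1.22 CPM and Awat2 3.57 and 1.89 CPM, and Awat2 was at 0 in some libraries. The adipocyte list of 10 genes summed to 83.4 to 235 CPM in wt/wt and 98 to 252 CPM in ko/ko. Lep and Pck1 were at 0 in some libraries. Within the adipocyte list 2 of 10 genes had a higher mean in ko/ko; Fabp4, at 113 CPM in wt/wt and 167 CPM in ko/ko, made up most of the sum, while Lep, the leptin gene, averaged 1.07 and 0.0631 CPM. Basal keratinocyte markers summed to 1499.8 to 3148 CPM in wt/wt and 1718 to 2688 CPM in ko/ko, and 9 suprabasal markers to 336 to 489 and 318 to 463 CPM. Itga6, which encodes the CD49f antigen of the sort, had a log2 fold change of 0.64 (unadjusted p = 0.00301 in edgeR). Of 10 hair matrix and inner root sheath markers, 1 had a higher mean in ko/ko and 3 had an unadjusted p under 0.05. Their sum was 225 CPM in wt/wt replicate 2, the library with the highest enzyme sum, 2232 CPM. It was 68.2 CPM in wt/wt replicate 3, whose enzyme sum was 2207 CPM. The other wt/wt libraries had 58.6 to 77.9 CPM of these markers and the ko/ko libraries 46.5 to 65.7 CPM. Krt28, Krt71, Krt72 and Krt73 were at 0 in some libraries. All 6 T cell markers had a higher mean in ko/ko, summing to 0.558 to 3.7 CPM in wt/wt and 3.29 to 7.67 CPM in ko/ko, with all but Cd3e at 0 in some libraries. The part of these in the enzyme values was not tested. The lymphatic endothelial list moved with genotype in the direction of Srebf1 and Insig1. In it, 0 of 7 markers had a higher mean in ko/ko and 6 of 7 had an unadjusted p under 0.05 in edgeR. The sum was 413 to 894 CPM in wt/wt and 225 to 329 CPM in ko/ko, and no marker was at 0. Within wt/wt, replicates 1 and 2 had the highest sums, 894 and 833 CPM. The same replicates had the lowest Srebf1, 133 and 132 CPM, and the lowest Insig1, 96.7 and 88.1 CPM. Their Srebf2 was the highest, 79.5 and 77.7 CPM. These 2 replicates differed from wt/wt replicates 3 to 5 in other markers too. Their fibroblast sums were 15221 and 14044 CPM, against 28243 to 33440.4 CPM there and 18159 to 34313 CPM in ko/ko. Mural (vessel wall) sums were 52.3 and 76.7 against 212 to 301 CPM, and Schwann cell sums 105 and 91.1 against 435 to 488 CPM. The part of lymphatic or other cells in the Srebf1, Insig1 and Srebf2 values was not tested.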

How the data were processed

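The authors deposited raw read counts per gene and exon lengths. Tools and build, per the submitters' processing notes, were mm10, featureCounts 1.6.2 and GSNAP; per the labels' protocols, cDNA was amplified over 13 cycles. The sources used here state neither strand nor multi-mapping settings. Of 49763 rows, 92 synthetic spike-ins were left out. Tests used R 4.3.3 and edgeR 4.0.16 on the counts (filterByExpr, TMM, glmQLFit with robust=TRUE, two-sided quasi-likelihood F test, Benjamini-Hochberg adjustment); 18435 genes were kept and 31236 removed. DESeq2 1.42.0 and limma 3.58.1 voom were alternatives, beside other scalings, filters, a loess trend on exon length (span 0.3) and leaving out each library. No libraries were duplicates: the closest pair had a chi-square of 23.9 per degree of freedom, over genes with a pair total of at least 20. Standard errors were derived from the log2 fold change and F. Counting floors cover counting error only. The members and lists were chosen with earlier results of these data known. Every member is named. Values in every library are given for members with an unadjusted p under 0.05, without overlap or highest per length in their role group, and for 10 genes chosen by name. Of each other list, genes with an unadjusted p under 0.05 are named, or else the one with the most counts.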

Additional observations from a re-analysis of the deposited data

Results flagged for a closer look

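In each of 62 groups of 4 or 5 libraries, the highest and lowest values were compared with the rest by Dixon's ratio; 5 stood apart, and chance gives about 1 in 20, or 3.1. Tm7sf2 had 7.05 CPM in wt/wt replicate 1 and 4.31 to 4.8 CPM in wt/wt replicates 2 to 5. Nr1h3 had 4.11 CPM in wt/wt replicate 1 and 6.48 to 7.38 CPM in the others. Among ko/ko libraries, Msmo1 had 305 CPM in replicate 2 and 238 to 244 CPM in the others. Nsdhl had 52.3 CPM in ko/ko replicate 4 and 39 to 40 CPM in the others, and Npc1 had 18.7 CPM in ko/ko replicate 1 and 23.5 to 24.1 CPM in the others. The synthetic spike-in rows, which entered no comparison, held 6 counts in wt/wt replicate 1 and 1 to 3 in the other libraries, where a count of 0 allows up to 3.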

How the results depend on the processing

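Over 19 alternatives, 510 of 570 values of the 30 genes kept their direction and side of the threshold; 4 passed it (Srebf1 in DESeq2 and voom, Insig1 and Abca1 in voom) and 56 changed sign, in 15 genes whose log2 fold changes were at most 0.33 in size. With library size alone, Mvk had 0.09, Pmvk 0.08, Nsdhl 0.01 and Nr1h2 0.05; with upper-quartile factors Mvk and Pmvk had 0.01; with at least 1 CPM in 4 libraries Pmvk had 0.01. With no filter, Acat2 had -0.02, Ebp -0.04, Scap -0.02 and Npc1 -0.01. In voom, Pmvk had 0.24, Ebp -0.12, Insig2 -0.05 and Mylip -0.05. With the length trend removed, Acat2 had -0.07, Ebp -0.09, Scap -0.12, Mylip -0.01 and Npc1 -0.20. Another fit, chosen after seeing the data, left out the 3 libraries richest in Gm10800 reads, wt/wt replicate 1 and ko/ko replicates 1 and 4. In ko/ko only replicates 2 and 3 remained. That fit gave Acat2 -0.18, Pmvk 0.08, Fdps -0.17, Tm7sf2 -0.07, Ebp -0.04, Sc5d 0.00, Mylip -0.02 and Stard4 0.02. Srebf1 was then at -0.74, Insig1 at -0.46, Srebf2 at -0.41, Abca1 at 0.70 and Hmgcs1 at -0.20. Only Srebf1 and Abca1 kept an unadjusted edgeR p under 0.05 in that fit, where Insig1 had 0.0543 and Srebf2 0.0908. Without ko/ko replicate 1 alone, Hmgcs1 was at -0.29. Gm10800 content and the loss of these libraries therefore cannot be told apart. Leaving out each library moved Acat2 from -0.06 to 0.11, Mvk from -0.09 to 0.05, Pmvk from -0.12 to 0.13, Fdps from -0.10 to 0.34, Tm7sf2 from -0.23 to 0.54, Ebp from -0.07 to 0.07, Sc5d from -0.23 to 0.03, Scap from -0.13 to 0.10, Mylip from -0.03 to 0.14, Abcg1 from -0.70 to 0.04 and Npc1 from -0.05 to 0.12. The number of genes called higher, 1 in edgeR, was 4 with library size alone, 26 with no filter, 438 in DESeq2, 1217 in voom, 0 with the length trend removed, 7 without the Gm10800-rich libraries and 0 to 12 leaving out each library (12 without ko/ko replicate 4). The number called lower, 0 in edgeR with 1183 at an unadjusted p under 0.05, was 2 with no filter, 192 in DESeq2 and 585 in voom. Of the 30 genes, DESeq2 called 1 and voom 3. The 4 with an unadjusted p under 0.05 became 7 with no filter, 2 without the Gm10800-rich libraries and 2 to 5 leaving out each library (2 without ko/ko replicate 1). The higher share of all genes with an unadjusted p under 0.05 was 58% with TMM, 77.8% with library size alone and 41% with the length trend removed. The regulators' median was 0.09 with library size alone, -0.12 with the length trend removed and -0.09 to 0.02 leaving out each library. The cause was not tested. No paired analysis was possible because the labels give no replicate numbers, and those used here follow accession order. The lowest genes rest on few counts, 38 to 176 per library for Abcg1 and 71 to 218 for Tm7sf2.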
